A study of Canis lupus familiaris with 24 samples.

Results

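CXCL12, CCL19 and CCL21 are the 3 homeostatic chemokines of lymph node stroma that could be named on these arrays, and they were followed through the lymph nodes of 4 dogs that had lymphoma of B cell type, a tumour of the antibody-making lymphocyte line. They were chosen by symbol: every non-control probe whose RefSeq accession belongs to dog CXCL12, CCL19 or CCL21 was taken. This gave 1 probe for each gene, or 3 genes of the 27719 genes or unnamed transcripts tested, of which 718 carried a symbol. CXCL12 was listed as NM_001128097, CCL19 as NM_001005256 and CCL21 as NM_001005258. In the RefSeq gene table, CCL19 and CCL21 lie on 1 chromosome with 0 protein-coding genes between them, and CXCL12 lies on another chromosome.

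Each dog was sampled by needle aspiration of its peripheral lymph nodes in both phases, after its tumour had become resistant to drugs and while it was still sensitive. The drugs are not given in the sources used here. Dog 1 was a Shih Tzu male aged 10 years, dog 2 a Doberman male aged 9 years, dog 3 a castrated French Bulldog male aged 3 years and dog 4 a spayed French Bulldog female aged 5 years. The label gives the same age for both phases of a dog. Every combination of dog and phase, 8 groups in total, was hybridised to 3 one-colour arrays, which makes 24. Nothing states whether the 3 came from separate aspirates, so within a dog the p-values measure the spread between arrays, which may be technical.

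Homeostatic chemokines are made without inflammation and set where lymphocytes settle in a lymph node. CXCL12 is secreted by fibroblast-like stromal cells and signals through CXCR4, while ACKR3 takes it up and clears it. CCL19 and CCL21 are the ligands of CCR7, are made mainly by fibroblastic reticular cells of the T cell zone, and draw in naive T cells and dendritic cells. CCL21 differs from CCL19 in a long basic tail that holds it on matrix sugars.

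Levels are log2 of the processed signal minus the array's 75th percentile, and changes are resistant minus sensitive. The 75th percentile of signal lay between 676 and 1118 over the arrays, and 71.0% to 80.9% of the spots of an array were well above background. The median correlation over transcripts was 0.992 between arrays of a group, 0.975 between the 2 phases of a dog and 0.952 between dogs. The B cell genes MS4A1 and CD40 were well above background on all 24 arrays. Their group means lay between 3.47 and 4.34 for MS4A1 and between 5.39 and 6.0 for CD40, and neither changed by 2-fold in any dog. A gene was called within a dog at a limma adjusted p under 0.05 together with a change of at least 2-fold, and 3 arrays per phase limit the precision.

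CXCL12, which holds CXCR4-bearing lymphocytes and blood progenitors in their niches, was lower in the resistant phase of every dog. In dog 1 its level was -6.29, -6.19 and -6.32 on the resistant arrays, against -3.57, -3.41 and -3.52 on the sensitive arrays. In dog 2 it was -4.22, -4.39 and -4.29 on resistant arrays, against -2.51, -2.52 and -2.55 on sensitive arrays. All resistant arrays of these 2 dogs lay below all sensitive arrays of the same dog. Dog 3 gave -3.05, -3.16 and -3.07 in the resistant phase, against -1.23, -1.22 and -1.19 in the sensitive phase. Dog 4 gave -3.96, -4.07 and -4.15 in the resistant phase, against -2.40, -2.41 and -2.31 in the sensitive phase. Again no resistant array reached a sensitive one. The resistant arrays of dog 1 were the dimmest of all, with signals of 11.3, 12.6 and 10.8, and 2 of these 3 were well above background.

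The fall of CXCL12 was -2.77 in dog 1 (SE 0.055, limma adjusted p = 1.19e-17), a 6.81-fold difference. It was -1.77 in dog 2 (SE 0.055, limma adjusted p = 3.69e-15), a 3.42-fold difference. In dog 3 the change was -1.88 (SE 0.055, limma adjusted p = 5.78e-15) and in dog 4 -1.69 (SE 0.055, limma adjusted p = 6.94e-14). CXCL12 was thus called lower in 4 of 4 dogs. The same call was made for 8.10%, 9.84%, 5.39% and 1.50% of transcripts in dogs 1 to 4, and 43 of 27719 transcripts (0.155%) were called lower in all 4. After normexp background correction and quantile normalisation the change was -0.91 in dog 1 and -0.95 in dog 2, under 2-fold, so the call ended there. In dog 4 it was -1.11, and with the authors' value table it was -1.42 in dog 1. The normexp setting adds an offset of 50 to each signal, which by itself shrinks the fold changes of dim spots. Mean CXCL12 signals in dog 1 were 11.6 resistant and 70.2 sensitive, so the ended call there cannot be read apart from the offset. CXCL12 is a stromal product, and in such bulk samples fewer stromal cells and less RNA per cell cannot be told apart.

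CCL19, the soluble CCR7 ligand, moved in opposite directions in different dogs. In dog 1 its level was -0.78, -0.69 and -0.73 on the resistant arrays, against -3.28, -3.22 and -3.20 on the sensitive arrays. Here the resistant arrays were the high ones, and no array of 1 phase reached the other. In dog 2 the level was -2.56, -2.58 and -2.54 in the resistant phase, against 0.34, 0.37 and 0.25 in the sensitive phase. In dog 3 it was -0.73, -0.80 and -0.76 in the resistant phase, against 1.87, 1.89 and 1.91 in the sensitive phase. In dog 4 it was -2.91, -2.79 and -2.81 in the resistant phase, against -1.55, -1.49 and -1.62 in the sensitive phase. In these 3 dogs every resistant array lay below every sensitive array.

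CCL19 rose by 2.50 in dog 1 (SE 0.040, limma adjusted p = 6.38e-19), a 5.65-fold difference, and 99.6% of transcripts had a lower change in that dog. Calls in the higher direction made up 3.83%, 3.98%, 1.36% and 4.06% of transcripts in dogs 1 to 4. It fell by 2.88 in dog 2 (SE 0.040, limma adjusted p = 3.38e-20) and fell by 2.66 in dog 3 (SE 0.040, limma adjusted p = 7.15e-19). These 2 falls were 7.36-fold and 6.30-fold. In dog 4 the fall was 2.43-fold, with a change of -1.28 (SE 0.040, limma adjusted p = 4.16e-14). CCL19 was thus called lower in 3 dogs and higher in 1. Among all transcripts, 485 (1.75%) were called lower in 3 or 4 dogs, and 1047 (3.78%) were called lower in at least 1 dog and higher in at least 1.

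CCL21, the CCR7 ligand that stays bound near its source, passed both thresholds in 2 dogs. In dog 1 its level was -3.09, -3.19 and -3.19 on the resistant arrays, against -3.66, -3.73 and -3.81 on the sensitive arrays. In dog 2 it was -4.68, -4.77 and -4.67 on resistant arrays, against -1.91, -1.95 and -1.85 on sensitive arrays. The resistant arrays were the higher ones in dog 1 and the lower ones in dog 2. Dog 3 gave -1.74, -1.75 and -1.76 in the resistant phase, against -0.18, -0.21 and -0.17 in the sensitive phase. Dog 4 gave -5.04, -4.91 and -5.20 in the resistant phase, against -4.71, -4.67 and -4.74 in the sensitive phase. Both had all resistant arrays below all sensitive arrays, but the gap in dog 4 was narrow.

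CCL21 fell by 2.80 in dog 2 (SE 0.057, limma adjusted p = 6.54e-18), a 6.97-fold difference, and fell by 1.56 in dog 3 (SE 0.057, limma adjusted p = 1.22e-13), a 2.96-fold difference. In dog 2 the change was -1.53 after normexp correction with quantile normalisation and -2.02 with the authors' value table, and both were still called. The CCL21 change in dog 1 was 0.58 (SE 0.057, limma adjusted p = 8.44e-08), a 1.50-fold difference that missed the 2-fold threshold. Its change in dog 4 was -0.34 (SE 0.057, limma adjusted p = 9.01e-05), a 1.27-fold difference that missed it too. It ran from -0.55 to -0.11 in dog 4 over the alternatives, and was 0.37 in dog 1 with the authors' value table. CCL21 was lowest in the resistant phase of dog 4, with a mean signal of 21.2 ± 2.45 (SD, n = 3), and it was well above background on all 24 arrays, as CCL19 was.

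**Figure D1:**
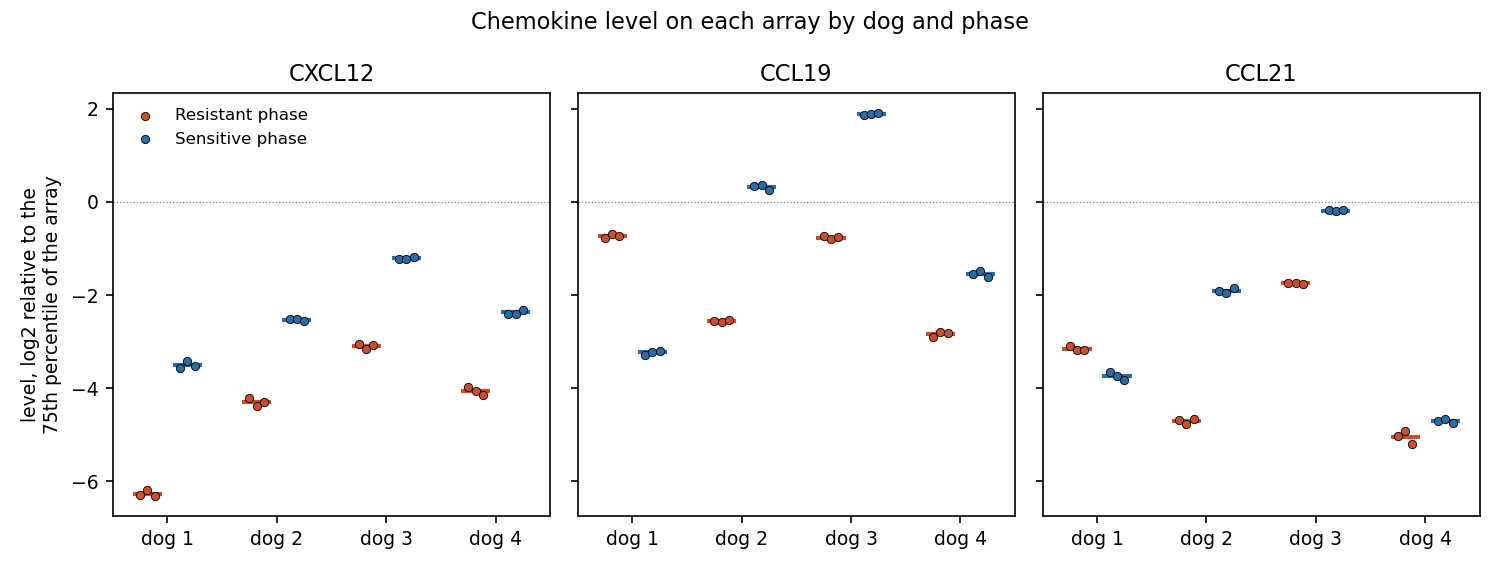
Level of CXCL12, CCL19 and CCL21 on each of the 24 arrays (y axis, log2 relative to the array's 75th percentile), with the resistant phase left of the sensitive phase in each dog (x axis); points are arrays and bars group means of 3 arrays. CXCL12 is lower in the resistant phase of all 4 dogs, while CCL19 averages -0.74 in the resistant phase of dog 1, against -3.23 in its sensitive phase, and has the opposite order in dogs 2, 3 and 4.

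Over the 12 comparisons of a gene within a dog, 9 were called lower, 1 was called higher and 2 were not called, and the arrays of the 2 phases did not overlap in any of the 12. Calls in either direction were made for 11.9%, 13.8%, 6.75% and 5.56% of transcripts in dogs 1 to 4. Arrays that do not overlap were common, at 62.2%, 68.7%, 54.8% and 56.4% of transcripts in dogs 1 to 4. The SD of 3 arrays was 0.018 to 0.095 for CXCL12, 0.021 to 0.064 for CCL19 and 0.011 to 0.145 for CCL21. The median SD over groups was 0.067, 0.042 and 0.054 in that order, against 0.072 over all transcripts.

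Slides hold several arrays, and phases shared a slide in dogs 1, 2 and 3. Within slide 1, the change of CXCL12 in dog 1 was -2.79, from 1 resistant and 3 sensitive arrays. Within slide 3 it was -1.75 in dog 2, from 3 resistant and 1 sensitive arrays, and within slide 4 it was -1.83 in dog 3, from 1 resistant and 3 sensitive arrays. CCL19 changed by 2.45, -2.81 and -2.63 within the same slides, and CCL21 by 0.65, -2.85 and -1.55, so each kept its direction and its side of the 2-fold threshold. In dog 4 the 3 resistant arrays filled slide 7, which was scanned on another day, so there slide and phase cannot be told apart.

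**Figure D2:**
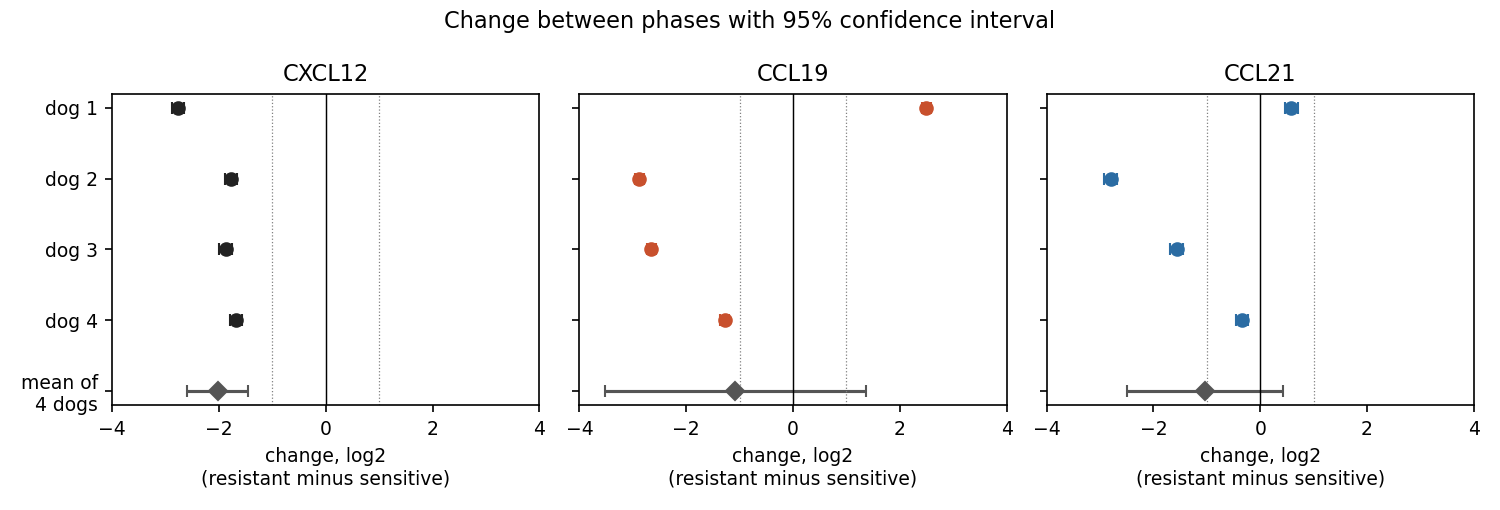
Change of each gene (x axis, log2, resistant minus sensitive) in each dog and as the mean of 4 dogs (rows), with 95% confidence intervals; dotted lines mark 2-fold. The 4 intervals of CXCL12 all lie below the 2-fold line, and those of CCL19 lie on both sides of 0.

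The changes differed between dogs for all 3 genes. CCL19 had the widest spread, with changes from -2.88 to 2.50, a range of 5.38 that exceeded that of 99.3% of transcripts (limma F-test of the dog-by-phase interaction, adjusted p = 2.43e-21). For CCL21 the range was 3.38, wider than for 95.4% of transcripts (limma interaction adjusted p = 4.24e-16). CXCL12 had a range of 1.08, wider than for 61.2% of transcripts (limma interaction adjusted p = 1.48e-09). Such an interaction was common, as 21840 transcripts, 78.8% of those tested, had an adjusted p under 0.05.

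Taking dogs by pairs, 11 of the 18 differences in change were called at 2-fold and an adjusted p under 0.05, with p-values adjusted over all transcripts. For CXCL12 this was 1 of 6, the difference of dog 1 from dog 4 at -1.08 (SE 0.078, limma adjusted p = 1.85e-09), and such a call was made for 15.3% of transcripts. The sign of that difference turned after normexp correction with quantile normalisation, where CXCL12 changed by -0.91 in dog 1 and -1.11 in dog 4. CXCL12 changes in dogs 2 and 3 differed by 0.11 (95% interval -0.06 to 0.27) and those in dogs 2 and 4 by -0.09 (95% interval -0.25 to 0.08), so a difference between them was not shown. For CCL19, 5 of 6 were called, and the exception was dog 2 against dog 3 at -0.22 (95% interval -0.34 to -0.10). Dog 1 stood 5.38 above dog 2, 5.15 above dog 3 and 3.78 above dog 4 in its CCL19 change. For CCL21, 5 of 6 were called, and the exception was dog 1 against dog 4 at 0.92 (95% interval 0.75 to 1.09). Over all transcripts, 21.1% were called between dogs 1 and 2, 14.7% between dogs 1 and 3, 13.0% between dogs 2 and 3, 15.9% between dogs 2 and 4 and 8.93% between dogs 3 and 4.

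Averaged over the 4 dogs, none of the 3 genes passed limma's test, which compared 8 group means and kept each dog as its own block. CXCL12 had a mean change of -2.03 (SE 0.22, 95% interval -2.60 to -1.45, lower in 4 of 4 dogs, adjusted p = 0.364). It was -1.11 after normexp correction with quantile normalisation and -1.40 with the authors' value table. Its unadjusted p of 0.000242 was 15th lowest of 27719, and 0.339% of transcripts had a lower mean change. CCL19 had a mean change of -1.08 (SE 0.96, 95% interval -3.52 to 1.36, lower in 3 of 4 dogs, adjusted p = 0.879). CCL21 had a mean change of -1.03 (SE 0.57, 95% interval -2.50 to 0.43, lower in 3 of 4 dogs, adjusted p = 0.879), and of -0.64 after normexp correction. In this test 0 transcripts (0%) reached an adjusted p under 0.05, and 1602 (5.78%) had an unadjusted p under 0.05, 4.69% in the lower direction. Of all transcripts, 1944 (7.01%) were lower in all 4 dogs by sign.

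Single dogs weighed on the means of CCL19 and CCL21. Without dog 1 the mean change of CCL19 was -2.27 (limma adjusted p = 0.623) and that of CCL21 -1.57 (limma adjusted p = 0.694). Without dog 2 the values were -0.48 for CCL19 and -0.44 for CCL21, and without dog 3 that of CCL19 was -0.55. Leaving out any 1 dog kept the CXCL12 mean between -2.14 and -1.78. When the 24 arrays were entered singly with dog and phase as a random block, CXCL12 passed (limma adjusted p = 1.63e-08), CCL21 passed (limma adjusted p = 0.043) and CCL19 did not (limma adjusted p = 0.239). In that fit 1755 transcripts passed, and it takes its spread from arrays as well as from dogs.

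**Figure D3:**
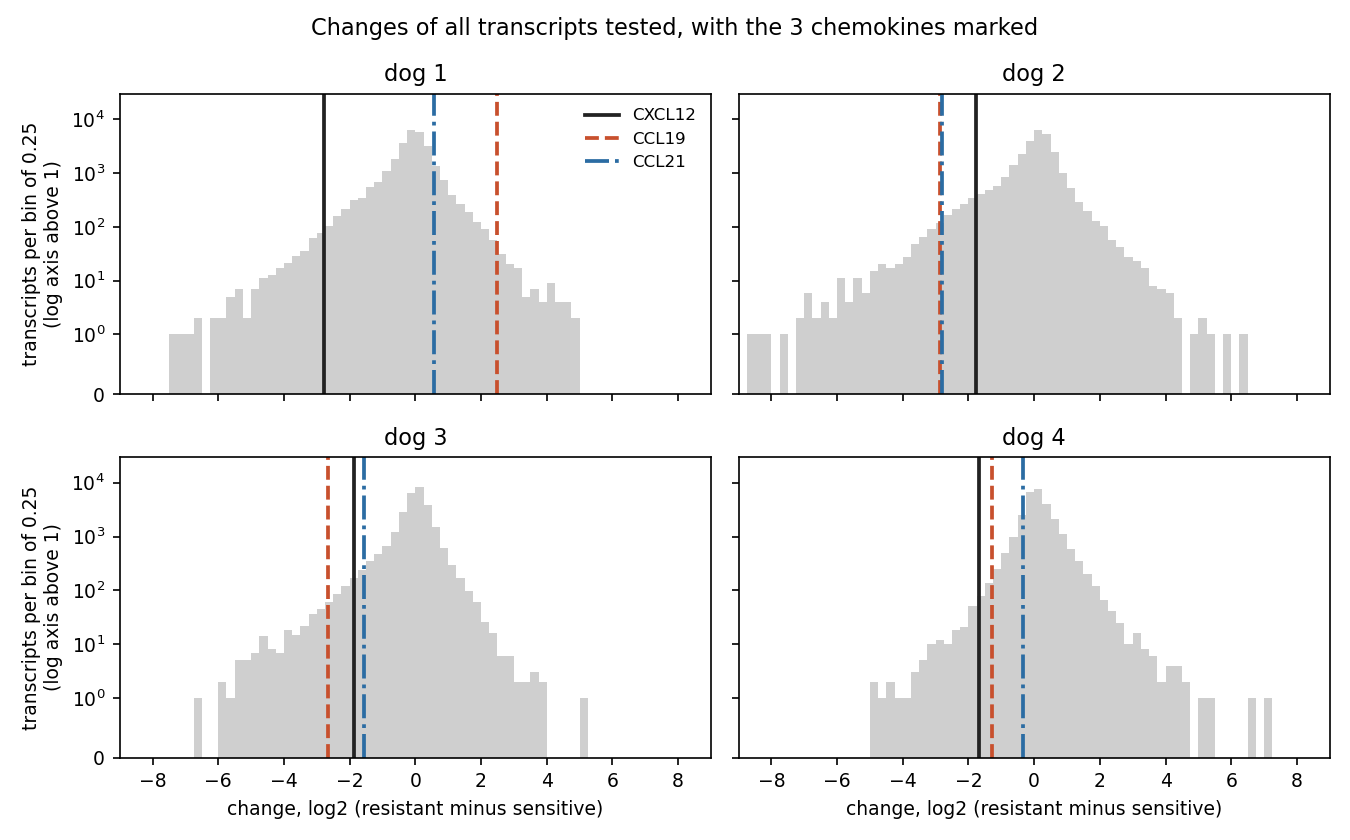
Changes of all 27719 transcripts in each dog (x axis, log2, resistant minus sensitive; y axis, transcripts per bin of 0.25, log axis above 1), with the 3 chemokines as vertical lines. CCL19 lies in the upper tail in dog 1 and in the lower tail in dogs 2, 3 and 4, and CXCL12 lies in the lower tail of all 4 dogs.

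The 8 groups had a nearly complete order for each gene. CXCL12 was highest in the sensitive phase of dog 3 (-1.21), then of dog 4 (-2.37) and dog 2 (-2.53), and lowest in the resistant phase of dog 1 (-6.27). None of its 7 neighbouring groups in that order overlapped. The closest were the sensitive phases of dogs 4 and 2, which differed by 0.15 (SE 0.055, limma adjusted p = 0.0202). CCL19 was highest in the sensitive phase of dog 3 (1.89) and lowest in the sensitive phase of dog 1 (-3.23). Its resistant phases of dogs 1 and 3 did not differ beyond their spread, with a difference of 0.03 (SE 0.040, limma adjusted p = 0.579). CCL21 was highest in the sensitive phase of dog 3 (-0.18) and lowest in the resistant phase of dog 4 (-5.05). For it the sensitive phase of dog 4 and the resistant phase of dog 2 overlapped, at -4.71 each (limma adjusted p = 0.999).

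Levels also differed between dogs within a phase. The highest and lowest dog lay 9.05-fold apart in the resistant phase and 4.89-fold apart in the sensitive phase for CXCL12. For CCL19 the dogs spanned 4.28-fold in the resistant phase and 34.9-fold in the sensitive phase. For CCL21 they spanned 9.84-fold in the resistant phase and 23.0-fold in the sensitive phase. Dog 3 had the highest sensitive level of all 3 genes. Dog 1 had the lowest sensitive level of CXCL12 and CCL19, and dog 4 that of CCL21.

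CCL19 and CCL21, neighbours in the genome and ligands of 1 receptor, followed each other over the 8 group means with a Pearson r of 0.884 and a Spearman rho of 0.786. CXCL12 had an r of 0.490 with CCL19 and of 0.495 with CCL21. These are descriptions over 8 points that share dogs by pairs. The pair of CCR7 ligands did not change by equal amounts. The change of CCL19 minus that of CCL21 was 1.92 in dog 1, -1.09 in dog 3 and -0.94 in dog 4. In dog 2 it was -0.08, and there the arrays of the phases overlapped in the difference of the 2 genes.

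Of the other 717 named genes, FCER1A, which codes for the binding chain of the high-affinity IgE receptor, was most like CXCL12 over the group means (r = 0.956). COL1A2, a chain of type I collagen, followed (r = 0.939), then the leukocyte surface antigen gene CD52 (r = 0.924). For CCL19 the most alike were CCL21, the interleukin-18 inhibitor gene IL18BP (r = 0.863) and MAL, a lymphocyte membrane raft protein gene (r = 0.848). FCER1A and MAL were each not well above background in 1 of the 8 groups. Among named genes, 6 had an r over 0.9 with CXCL12 and 0 with CCL19, and the median r was 0.04 with CXCL12 and 0.06 with CCL19.

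Of 20 other genes listed for the homeostatic chemokine axis, 5 were measured: the chemokine genes CCL25, CCL27 and CCL28, the scavenger receptor gene ACKR3 and GNAI2, an inhibitory G protein subunit used by chemokine receptors. ACKR3, the other receptor of CXCL12, fell by 1.96 in dog 1 (SE 0.042, limma adjusted p = 3.20e-17) and fell by 1.35 in dog 3 (SE 0.042, limma adjusted p = 1.18e-14). Its change was -0.51 in dog 2 and 0.03 in dog 4, and neither was called. ACKR3 group means were -3.73 resistant against -1.77 sensitive in dog 1 and -3.24 resistant against -1.89 sensitive in dog 3. After normexp background correction and quantile normalisation the change in dog 3 was -0.87, and the call ended, while that in dog 1 was -1.09. CCL28, a mucosal chemokine, was at least 1.86-fold higher in the resistant phase of dog 4, where it was not well above background in the sensitive phase ("at least" sets the bright mean against the dimmest signal that still counted as well above background on the dim arrays, or the probe's own where higher). That CCL28 call ended after normexp background correction (0.23) and with the authors' value table (0.52). CCL25 changed by -0.26 to 0.64, CCL27 by -0.21 to 0.25 and GNAI2 by 0.02 to 0.39 over the dogs, with no call. As a list, 1 of 5 was called lower in dogs 1 and 3 and 1 of 5 higher in dog 4. Of all transcripts, 8.10% and 5.39% were called lower in dogs 1 and 3, and 4.06% higher in dog 4. The list's median mean change was 0.19, against 0.06 over all transcripts. The receptors CXCR4 and CCR7 were not analysed here.

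Lymphotoxin, TNF and NF-kB signals induce lymphoid stroma to make these chemokines, and 4 of 20 genes listed for that induction were measured. LTB, a lymphotoxin chain, changed by 0.06 to 0.41, TNF by -0.68 to 0.07 and NFKB1, an NF-kB subunit gene, by -0.02 to 0.36, and none was called. The other NFKB1 probe ran from -0.30 in dog 3 to 0.24 in dog 4, opposite in sign to the probe used in each dog. IL7, the T cell survival factor made by reticular cells, fell by 1.05 in dog 1 (limma adjusted p = 8.12e-08), and its change was -0.25, -0.05 and 0.49 in dogs 2, 3 and 4. That call ended under quantile normalisation (-0.91), median scaling (-0.87), the authors' value table (-0.82) and normexp correction (-0.57). The list's median mean change was -0.03.

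Other chemokines and chemokine receptors, mostly inflammatory, were measured for 17 of 41 listed. They were called lower for 9, 6, 4 and 0 members and higher for 2, 1, 2 and 3 in dogs 1 to 4, with a median mean change of -0.20. Over all transcripts the lower calls were 8.10%, 9.84%, 5.39% and 1.50% and the higher calls 3.83%, 3.98%, 1.36% and 4.06%. Of the 3 called higher in dog 4, the chemokine genes CCL7 and CCL24 were not well above background on any sensitive array. Their rises there were at least 1.75-fold and at least 1.9-fold, both under the 2-fold threshold. CCL4, an attractant of T cells and monocytes, changed by -3.16, -6.85, -1.17 and -0.41 in dogs 1 to 4, and the first 3 were called. CCL3 changed by -3.59, -6.43, -1.02 and 0.53 and CCL5 by -2.91, -6.24, -0.87 and 0.30, with dog 2 the lowest in each. The call of CCL3 in dog 3 ended under each change of scaling or background correction, with the authors' value table and with slide as a block, for example at -0.25 with slide as a fixed block. Those of CCL4 and CCR3 in dog 3 ended after normexp correction and with the authors' value table. CCR3, an eotaxin receptor gene, rose by 5.21 in dog 2 and 1.29 in dog 3. The 2 members called higher in dog 1 were CXCL10, an interferon-induced attractant of T cells, and the receptor gene CCR1, both named after their values were seen. CXCL10 changed by 2.88, -8.40, 0.08 and -0.16 in dogs 1 to 4 and CCR1 by 1.12, -0.71, 1.28 and 0.30.

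Markers of fibroblasts and stroma, the cells that make these chemokines, were measured for 8 of 19 listed. They were called lower for 3, 5, 3 and 0 members and higher for 0, 1, 1 and 0 in dogs 1 to 4, and the median change was -0.66, -1.45, -0.61 and -0.02, against -0.06, 0.11, 0.03 and 0.07 over all transcripts. The share of all transcripts called lower was 8.10%, 9.84%, 5.39% and 1.50%, and the share called higher was 3.83%, 3.98%, 1.36% and 4.06%. Summed over the 8 genes, in units of the array's 75th percentile, the level was 0.613 to 0.624 on resistant arrays of dog 1, against 2.37 to 2.39 on its sensitive arrays. In dog 2 the sum was 3.41 to 3.71 resistant, against 9.43 to 10.0 sensitive. In dog 3 it was 4.59 to 4.79 resistant, against 11.2 to 11.8 sensitive, and in dog 4 it was 3.39 to 3.53 resistant, against 4.38 to 5.06 sensitive. The resistant sum lay below the sensitive sum in 4 of 4 dogs. COL1A2 is the largest part of that sum in each group. In dog 4, BGN, DCN, PDPN and IL6 had changes above 0, from 0.03 to 0.89. The part of stromal cell number in the chemokine changes was not tested.

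Among these markers, COL1A2 changed by -3.13, -1.57, -1.39 and -0.55 in dogs 1 to 4, and the first 3 were called. DCN, which codes for the matrix proteoglycan decorin, changed by -2.49, -3.74 and 0.12 in dogs 1, 3 and 4, of which the first 2 were called, and its fall in dog 2 was at least 1.88-fold. COL1A1, the other type I collagen chain, fell by 1.93 in dog 2 and fell by 1.44 in dog 3. PDPN, a marker of fibroblastic reticular cells, fell by 1.55 in dog 1 and fell by 2.77 in dog 2. IL6, an inflammatory cytokine that stroma can make, named after its values were seen, was called higher in dogs 2 and 3, by 1.86 in dog 2 and at least 2.98-fold in dog 3. Other probes of the collagen genes gave smaller changes in part, such as -0.14 and -0.13 in dog 1 for 2 other COL1A2 probes and -0.32, -0.27 and 0.08 in dog 2 for the 3 other COL1A1 probes. The calls of COL1A1 in both dogs, of PDPN in both dogs and of DCN in dog 2 ended after normexp correction. With the mean of all probes, the count of stromal markers called lower was 3 in dog 2 and 1 in dog 3. After normexp correction it was 2 in dog 2, and with probes well above background on all 24 arrays it was 1 in dog 1 and 3 in dog 2. None of the 8 was at 0: 1 lay below the background limit on all arrays in the resistant phase of dog 2, 1 in the sensitive phase of dog 3 and 1 in the sensitive phase of dog 4.

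**Figure D4:**
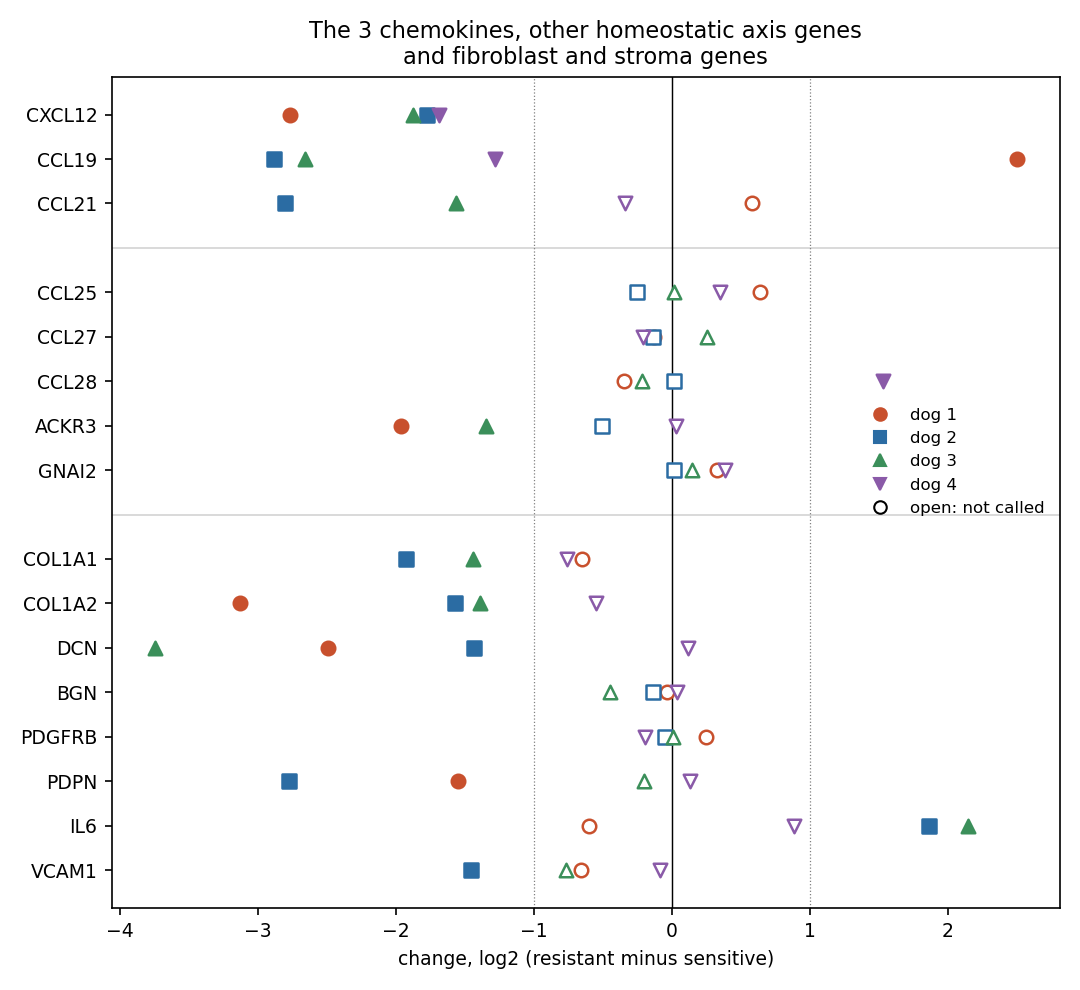
Change (x axis, log2, resistant minus sensitive) of the 3 chemokines, of 5 other homeostatic axis genes and of 8 fibroblast and stroma genes (rows) in each dog (symbols); filled symbols were called and open ones were not, and dotted lines mark 2-fold. COL1A2 and DCN share the lower direction of CXCL12 in dogs 1, 2 and 3, and in dog 4 none of the 8 stromal genes was called.

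Markers of the cells that these chemokines draw in or pass through were also counted. Of 6 T cell markers measured of 13 listed, 3, 6, 4 and 0 were called lower in dogs 1 to 4, against 8.10%, 9.84%, 5.39% and 1.50% of all transcripts. CD28, a costimulatory receptor, had a fall of at least 29.6-fold in dog 2 and changed by -1.19, -1.52 and 0.30 in dogs 1, 3 and 4. CTLA4, its inhibitory relative, had a fall of at least 10.2-fold in dog 1 and changed by -4.66 in dog 2 and -1.28 in dog 3, both called. ICOS, of the same receptor family, had falls of at least 11-fold in dog 2 and at least 2.27-fold in dog 3, and CD8A fell by 4.84 in dog 2. In dog 3 the calls of CD28, CTLA4 and ICOS ended after normexp correction and with the authors' value table, and in dog 1 so did those of CD28 and ICOS. Of the 6 genes, 2, 2 and 1 lay below the background limit on all resistant arrays of dogs 1, 2 and 3, and 0 did in the sensitive phase. The T cell sum was 0.276 to 0.305 resistant against 0.453 to 0.522 sensitive in dog 1, and 0.317 to 0.326 resistant against 4.59 to 4.83 sensitive in dog 2. It was 0.574 to 0.676 resistant against 1.10 to 1.14 sensitive in dog 3, and 0.727 to 0.752 resistant against 0.577 to 0.638 sensitive in dog 4. In dog 4, where none was called, CD8A changed by -0.36 and CD40LG by -0.06 while the other 4 had changes above 0. Other probes of these 2 genes differed in part. The other CD8A probe, well above background on 23 arrays, gave -1.71, -6.81, -1.55 and -1.03 in dogs 1 to 4. The CD8A probe used gave -0.34, -4.84, -0.22 and -0.36. For CD40LG the other probe gave 0.295 in dog 4. The part of T cell number in the chemokine changes was not tested.

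Endothelium includes the venules that make CCL21 in mouse. Of 6 endothelial markers measured of 16 listed, 2 were called lower in each of dogs 1, 2 and 3 and 0 in dog 4, where 8.10%, 9.84%, 5.39% and 1.50% of all transcripts were called lower in dogs 1 to 4. KDR, the main VEGF receptor gene, had a fall of at least 2.67-fold in dog 1 and changed by -2.08 in dog 2 and -2.91 in dog 3, both called. EDN1, the endothelin-1 gene, was called beside it. After normexp correction and with the authors' value table the EDN1 calls ended in these 3 dogs and that of KDR ended in dog 1. The summed endothelial level overlapped between phases in dogs 1, 3 and 4, and in dog 2 it was 8.24 to 9.30 resistant against 7.33 to 8.22 sensitive. MADCAM1, an addressin of venules, is the largest part of that sum in each group, with group means of 2.23 to 3.79. KDR reached at most -1.50 and EDN1 at most -6.11, so the sum says little about these 2 genes. The vessel gene VWF changed by -0.40 to 0.17 and MADCAM1 by 0.00 to 0.42, with no call. SELE, an endothelial selectin gene, was not called with the probe used, at -0.80 to 0.65. Its other probe, well above background on 21 arrays, gave -4.60, -0.88, -1.71 and 0.25 in dogs 1 to 4. Of 5 follicular dendritic and dendritic cell markers, 2, 1, 2 and 0 were called lower in dogs 1 to 4 and 1 higher in dog 3. In dog 3, 1.36% of all transcripts were called higher. CLU, a gene that follicular dendritic cells express strongly, fell by 1.31 in dog 1 and fell by 1.66 in dog 2. FLT3, a receptor gene of dendritic cells, fell by 1.09 in dog 1 and fell by 1.36 in dog 3. Its call in dog 1 ended under quantile normalisation (-0.86), median scaling (-0.91), the authors' value table (-0.56) and normexp correction (-0.26). In dog 3 its call ended after normexp correction (-0.81). CD1C, a dendritic cell antigen gene, had changes above 0 in all 4 dogs with the probe used, at 0.23, 0.56, 1.12 and 0.63. Of these that in dog 3 was called, and the call ended after normexp correction (0.76) and with the authors' value table (0.79). The other CD1C probe gave 0.41, -0.54, 0.70 and 1.08, so the direction in dog 2 depended on the probe. The summed dendritic level, which is mostly CLU, was lower in the resistant phase of 4 of 4 dogs, with 27.6 to 29.3 resistant against 68.4 to 69.6 sensitive in dog 1 as the lowest and 99.5 to 103 resistant against 303 to 321 sensitive in dog 2 as the widest apart. In dog 4 the sums were nearly equal, at 80.1 to 87.9 resistant against 88.5 to 91.6 sensitive. The part of endothelial and dendritic cell number in the chemokine changes was not tested.

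The other marker lists moved less uniformly. The NK cell gene KLRD1 changed by -1.56, -6.42 and -1.48 in dogs 1, 2 and 3, all called, and the calls in dogs 1 and 3 ended after normexp correction. Of 2 macrophage markers, 1 was called lower in dog 1 and 2 in dog 3, and 1 higher in dog 2. Of 4 neutrophil markers, 3 were called lower in dog 1 and 3 in dog 3, 1 higher in dog 1 and 2 higher in dog 2. Of all transcripts, 8.10% and 5.39% were called lower in dogs 1 and 3, and 3.83% and 3.98% higher in dogs 1 and 2. The 1 neutrophil marker called higher in dog 1 was ELANE, the neutrophil elastase gene, at 1.45, and its change in dog 3 was -2.11, also called. In dog 1 it was well above background on 1 of 3 sensitive arrays. That call ended after normexp correction (0.33) and with the authors' value table (0.35). The ELANE call in dog 3 ended after normexp correction. CAMP, a neutrophil granule peptide gene, changed by -5.46, 4.49 and -5.41 in dogs 1, 2 and 3.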

How the data were processed

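Cells aspirated from lymph nodes were stored in a stabilising solution, and column-purified RNA was labelled with Cy3 by a low-input kit, per the labels' protocols. The deposited scanner files give spot intensity from Agilent Feature Extraction 10.7.3.1, a version named in the submitters' processing notes. It was already background-subtracted with no scaling between arrays, per the file headers. They also hold other columns deposited by the authors, the flags for outliers and for spots well above background. The authors' value table equalled the raw median intensity exactly on 24 arrays (largest difference 0), so its scale is linear and uncentred. Its column medians ran from 97 to 141. The sources used here give no genome build.

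The deposited processed intensity was turned into log2 values minus each array's 75th percentile. Control spots (1417 of 45220) and outlier spots (6 to 195 per array) were left out, and 0 spots were saturated. A probe was kept if well above background on all 3 arrays of a dog and phase (34551 of 43603), and the brightest probe stood for a gene. Accessions were matched to RefSeq's table for UU_Cfam_GSD_1.0, used for names and neighbours alone, and 832 of 35908 identifiers matched. Repeated spots of a probe were averaged.

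limma 3.58.1 in R 4.3.3 was fitted to group means, blocked by dog because both phases come from 1 animal, and to the 24 arrays in 8 groups within dogs, with Benjamini-Hochberg adjustment over all transcripts. Tests were two-sided and were checked on simulated data. Named were all measured axis genes, up to 4 members of largest mean change of each other list, and the 3 named genes most like each chemokine. Those most like CCL21, other than CCL19, are not reported here. CXCL10, CCR1, CCL7, CCL24, IL6, VWF, SELE and CD40LG were named after their values were seen. So were the other probes of COL1A1, COL1A2, NFKB1, CD8A, CD40LG, CD1C and SELE. The genes and lists were chosen with earlier results of these data known. Alternatives changed background correction, scaling, source of values, filter, probe rule, slide, blocks and samples. The planned normexp step used the median spot signal, as the files hold no mean signal, and added an offset of 50.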

Additional observations from a re-analysis of the deposited data

Results flagged for a closer look

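The changes of all 3 chemokines differed between the dogs by limma's F-test of the dog-by-phase interaction, with an adjusted p of 1.48e-09 for CXCL12, 2.43e-21 for CCL19 and 4.24e-16 for CCL21. For CXCL12 the difference was one of size, from -2.77 in dog 1 to -1.69 in dog 4, but the order of dogs depended on processing. The changes were -0.91, -0.95, -1.46 and -1.11 in dogs 1 to 4 after normexp correction with quantile normalisation. With the authors' value table they were -1.42, -1.33, -1.68 and -1.18. For CCL19 the difference was also one of direction, with 2.50 in dog 1 and -2.88 in dog 2. For CCL21 the values ran from 0.58 in dog 1 to -2.80 in dog 2. The spread behind these tests is that of 3 arrays per group, which may be technical, and 78.8% of transcripts passed the same test.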

How the results depend on the processing

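No change of a chemokine, and no called change of another named gene tested here, turned its sign under the alternatives run. Within dogs, 111 of 113 values of the 3 chemokines kept their side of the threshold, and the 2 exceptions were CXCL12 after normexp correction with quantile normalisation, at -0.91 in dog 1 and -0.95 in dog 2. All 26 interaction values held, with slide as a fixed block covering dogs 1 to 3. They test whether the changes differ, not the order of the dogs. For CXCL12 that order changed after normexp correction and with the authors' table. Across dogs, entering 24 arrays with dog and phase as a random block gave -2.03 for CXCL12, -1.03 for CCL21 and 1755 transcripts called, against 0. With slide as a random block they were -2.07, -1.14 (limma adjusted p = 0.00352) and 8867. Transcripts called in dogs 1 to 4 numbered 3308, 3830, 1871 and 1542, against 846, 1551, 589 and 180 after normexp correction, 1294, 2159, 856 and 235 with the authors' value table, 1537, 2150, 870 and 439 with probes well above background on all 24 arrays, and 2581 in dog 4 with no filter. CXCL12 has no value under the filter on 24 arrays, being dim on 1. Higher calls made up 32.1% in dog 1, against 46.6% with quantile and 46.7% with median scaling, 28.8% in dog 2, against 40.6% with median scaling, and 20.2% in dog 3, against 9.5% with the authors' table. They were 73.0% in dog 4, against a minority of 44.4% after normexp correction, 50.9% with quantile scaling, 52.8% with the authors' table and 57.6% with the strict filter. The median of all transcripts in dog 1 was 0.12 with median scaling, against -0.06. Of 73 calls of list genes and likeness genes, 34 ended after normexp correction and 21 with the authors' table. The offset of 50 in normexp correction shrinks changes of dim spots by itself, so a call of a dim gene that ended there does not show that its change was absent.

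Leaving out 1 dog gave -2.14 to -1.78 for CXCL12, -2.27 to -0.48 for CCL19, -1.57 to -0.44 for CCL21 and 0 to 0 transcripts. Leaving out 1 array gave, in dogs 1 to 4, -2.81 to -2.72, -1.81 to -1.73, -1.90 to -1.84 and -1.74 to -1.64 for CXCL12, 2.47 to 2.52, -2.91 to -2.85, -2.67 to -2.64 and -1.31 to -1.25 for CCL19, 0.54 to 0.62, -2.83 to -2.77, -1.57 to -1.56 and -0.41 to -0.27 for CCL21, and 2738 to 3836, 3409 to 4100, 1714 to 2372 and 1239 to 1930 transcripts.

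Same-numbered arrays of the 2 phases did not deviate together (12 pairs, r from -0.13 to 0.09). This check would show only deviations shared by number, so it does not settle whether the numbers pair samples. With the replicate block the changes stayed, such as -2.77 for CXCL12 in dog 1 (limma adjusted p = 4.80e-10), no chemokine call changed, and 3175, 3722, 1796 and 1437 transcripts were called in dogs 1 to 4. The fit across dogs without the dog as a block called 0. Another probe was not run, as each chemokine has 1, and slide as a fixed block gives no value in dog 4. Dim spots limit precision, as for CXCL12 on the resistant arrays of dog 1. Alternatives for leaving out dogs in the count across dogs, for the interaction by array and for list genes were chosen after seeing the data.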
